A study of Mus musculus with 14 samples.

Results

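The NF-kB subunits and inhibitors described here were 10 genes, taken by name out of 36870 gene names on the array: the 5 subunits Nfkb1, Nfkb2, Rel, Rela and Relb, and the inhibitors and regulators Nfkbia, Nfkbib, Nfkbie, Bcl3 and Tnfaip3. They were chosen by family, not by any measured value, though with earlier results of these data known. RNA of CD4+ T-cells was hybridised to 14 one-colour arrays, 7 from Roquin san/+ mice and 7 from wild-type mice, with replicates lettered A to G in each genotype. Roquin san/+ mice carry 1 copy of the sanroque allele of Rc3h1, the gene for the RNA-binding protein Roquin-1, in every cell and not only in T-cells. The labels give no treatment, age or strain and do not say whether each letter was a separate mouse, so p-values measure the spread between these samples. The sanroque allele is a point mutation, and the array level of Rc3h1 does not check the label.

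NF-kB is a family of transcription factors that bind DNA as dimers of Rel-domain subunits. Nfkb1 and Nfkb2 encode precursors that are cut to p50 and p52, which lack a transactivation domain of their own, whereas Rela, Rel and Relb encode subunits that activate transcription. In a resting T-cell the dimers are held in the cytoplasm by IkB proteins, encoded by Nfkbia, Nfkbib and Nfkbie, until the antigen receptor or a costimulatory receptor activates the IkB kinases. Bcl3 is a nuclear IkB-like protein that pairs with p50 or p52, and Tnfaip3 encodes A20, a ubiquitin-editing brake on the kinases. Several of these genes, Nfkbia and Tnfaip3 among them, are themselves transcribed in response to NF-kB.

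Promoter windows of these genes, from 250 bases before to 50 bases after each start site, were read from RefSeq (mouse build GRCm38.p6), which listed a window for 8 of the 10 genes. The kappa-B consensus, the 10-base NF-kB recognition sequence in its form with any base at the 2 central positions, was searched on both strands. It lay in the windows of Nfkb2, Rel, Nfkbia, Nfkbie, Bcl3 and Tnfaip3, that is, of 6 genes among 8, and of all 27025 genes with a window 9.55% held it. The 11 windows of these genes held it in 72.7% of cases, against 8.46% of 32851 windows overall. It was not found in the windows of Rela and Nfkbib. A match describes the letters only and is no measured binding site. The stretches around the matches are shown for the 4 genes whose windows held a single run of matches and for the first Nfkb2 start, with the matching bases in capitals, 5′ to 3′ on the strand of the gene.
Nfkb2, chr19:46304673-46304756, + strand: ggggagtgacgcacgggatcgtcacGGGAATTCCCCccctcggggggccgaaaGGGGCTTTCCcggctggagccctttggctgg
Rel, chr11:23771026-23771086, - strand: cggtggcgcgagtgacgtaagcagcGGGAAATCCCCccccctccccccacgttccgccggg
Nfkbia, chr12:55492642-55492701, - strand: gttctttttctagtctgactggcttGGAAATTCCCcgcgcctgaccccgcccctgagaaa
Nfkbie, chr17:45555569-45555628, + strand: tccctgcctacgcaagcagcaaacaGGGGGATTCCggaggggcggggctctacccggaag
Bcl3, chr7:19822736-19822778, - strand: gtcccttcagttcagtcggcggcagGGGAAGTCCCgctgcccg
In the Nfkb2 stretch 2 runs of matches lay between 39 and 2 bases before the start site. In Nfkbia the match lay 29 to 20 bases before the start, and in Bcl3 it lay just after it.

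Levels are given as the log2 processed signal of a probe less the 75th percentile of its array, so that 0 is the 75th percentile and 1 unit is a doubling on the linear scale; levels of different probes are not comparable with each other. On 2 arrays, replicate G of Roquin san/+ and replicate E of wild-type, the deposited spots lay 2 grid rows off their probe names and were moved back, after which the correlation with the median array went from 0.014 to 0.909 and from 0.015 to 0.889 (log2 processed signal over spots). On the 12 other arrays 55.4% to 76.5% of spots were well above background. Roquin san/+ replicates C and F and wild-type replicate C also stood apart, with summed levels of the 5 T-cell markers (Cd3e, Cd3d, Cd3g, Cd4 and Cd28, in multiples of the 75th percentile) of 7.90, 7.60 and 9.55, against 15.7 to 21.3 on the other 11. All 5 T-cell markers were nevertheless well above background on each of the 12 well-placed arrays. Slide 1 held 5 Roquin san/+ and 2 wild-type arrays and slide 2 held 2 and 5, so slide and genotype overlapped in part. Precision throughout is set by how many arrays there were.

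Each of the 10 genes had a probe well above background on all 12 well-placed arrays. None of the 10 differed between the genotypes after adjustment over all 32831 tested probes (limma, Benjamini-Hochberg), where 0% of probes passed and the smallest adjusted p was 0.883. All 10 had a higher mean in Roquin san/+, by 0.04 to 0.67 on the log2 scale with a median of 0.26, but 7 of 10 were higher when arrays were scaled to the 75th percentile over all probes. Of all tested probes 63.4% had a higher mean in Roquin san/+, with a median difference of 0.10. That lean turned with the scaling: 40.1% of probes were higher with quantile normalization (median -0.08), 42.4% with the percentile taken over all probes (-0.07) and 40.3% with the authors' log2 values (-0.07). In the main scaling it differed between the slides, with 69.2% higher within slide 1 (0.30) and 36.9% within slide 2 (-0.14). Of the 10 genes, 9 lay above the median of all probes, and the count was 5 with normexp background correction (median 0.29), 4 within slide 1 (0.30) and 3 with no filter on dim probes (0.40). At an unadjusted p below 0.05, 1 of the 10 was higher in Roquin san/+ and none was lower, beside 2.95% and 0.28% of all probes. The genotypes overlapped for every one of the 10 genes, as they did for all but 12 of the 32831 probes tested. In bulk RNA, fewer cells of a type and less RNA per cell cannot be told apart.

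**Figure D1:**
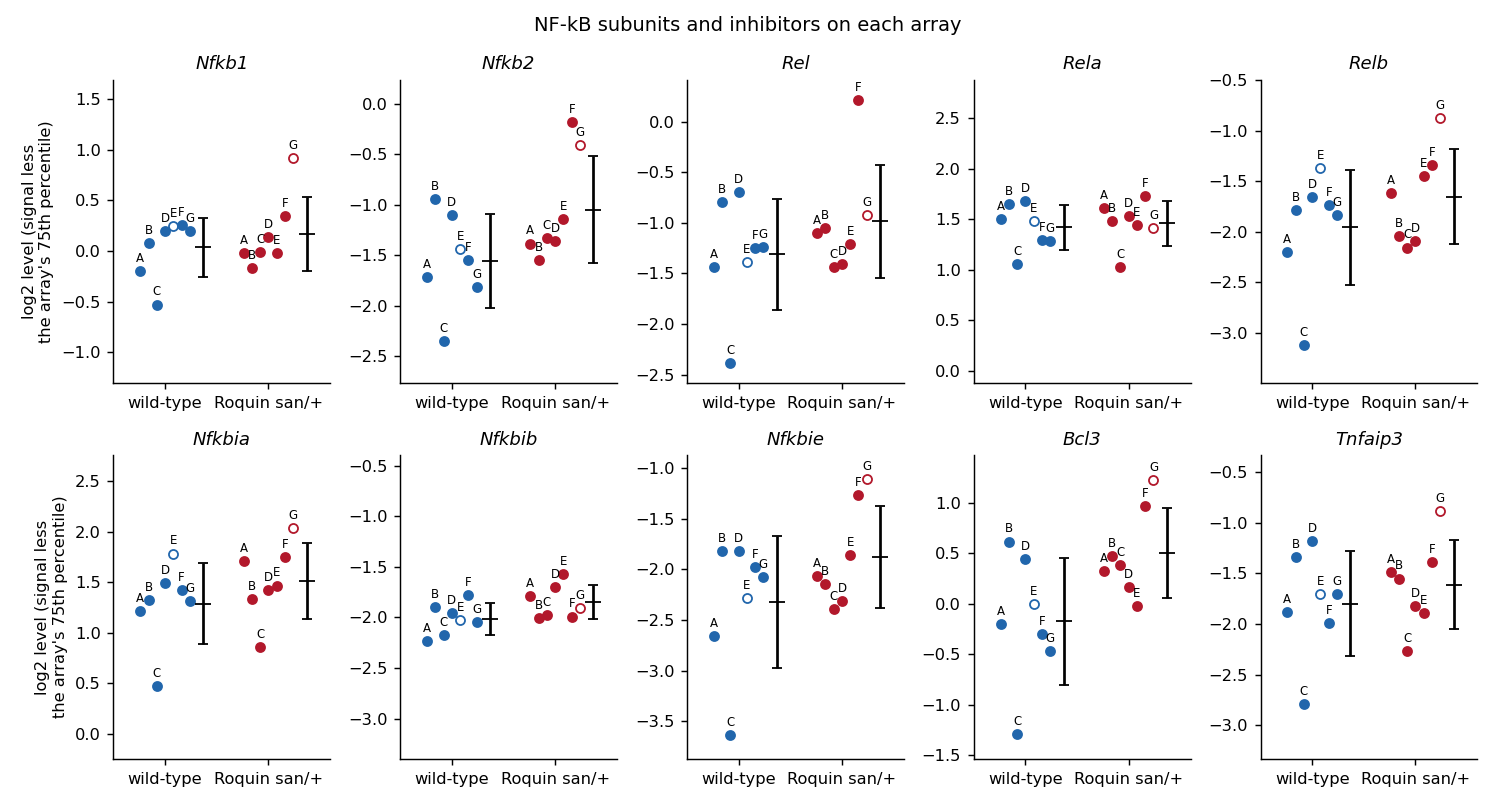
Levels of the 10 genes on each array (vertical axis, log2 processed signal less the array's 75th percentile; letters are replicates, open circles the 2 displaced arrays after the move, bars the mean ± SD of 7 arrays per genotype). Wild-type replicate C is lowest of all 14 arrays for 8 genes, and Roquin san/+ replicate G is highest for 6.

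Among the subunits that lack a transactivation domain, Nfkb2 had the larger difference. Its probe (chr19:46386440-46386499 on build mm9, the build of the array files; + strand) read from -1.54 to -0.18 in Roquin san/+ (median -1.33) and from -2.35 to -0.95 in wild-type (median -1.55). Roquin san/+ replicates F and G were the highest arrays and wild-type replicate C the lowest, while the other Roquin san/+ arrays lay within the wild-type range. The difference was 0.51 (95% interval -0.06 to 1.07, two-sided exact permutation p = 0.0874, limma adjusted p = 0.883), a 1.42-fold ratio. A second Nfkb2 probe (chr19:46386146-46386285) differed by 0.63 (0.15 to 1.11) with an unadjusted limma p of 0.0144 and an adjusted p of 0.883.

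Nfkb1 (chr3:135247898-135247958, - strand), the precursor of p50, read from -0.16 to 0.91 in Roquin san/+ and from -0.53 to 0.25 in wild-type, with medians of -0.01 and 0.19. The medians leaned the other way from the means. Replicate G was the highest array and wild-type replicate C the lowest, and the difference of the means was 0.0096 without the first and 0.04 without the second. On all arrays it was 0.13 (-0.28 to 0.55, limma adjusted p = 0.924), and its other probes differed by 0.19 and 0.08.

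The 3 transactivating subunits differed by 0.04 to 0.33, and none passed the adjusted threshold. Rela (chr19:5648070-5648129, + strand), the partner in the common p50 heterodimer, read from 1.02 to 1.73 in Roquin san/+ and from 1.05 to 1.68 in wild-type, with medians of 1.48 in both. These ranges all but coincided. The difference was 0.04 (-0.28 to 0.37, limma adjusted p = 0.975), an interval that leaves room for a change of up to about 0.37 in log2, and the other Rela probe, at the lowest signal on both displaced arrays, differed by -0.25 (-1.19 to 0.68).

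Rel (chr11:23637051-23637110, - strand), the c-Rel subunit of activated lymphocytes, read from -1.43 to 0.22 in Roquin san/+ (median -1.1) and from -2.39 to -0.70 in wild-type (median -1.25). Replicate F alone lay above 0, and the other Roquin san/+ arrays fell within the wild-type range. The difference of 0.33 (-0.29 to 0.95, limma adjusted p = 0.883) was 0.13 without replicate F. A dimmer Rel probe differed by 0.62 (-0.01 to 1.25), with its signal at the lowest value on both displaced arrays.

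Relb (chr7:20191722-20191781, - strand), the subunit that partners p52 in the alternative branch, read from -2.15 to -0.87 in Roquin san/+ and from -3.12 to -1.36 in wild-type, with medians of -1.61 and -1.78. Wild-type replicate C was again the lowest array. The difference was 0.30 (-0.29 to 0.89, limma adjusted p = 0.883). Of its other probes, 1 differed by 0.40 and 1, at the lowest signal on both displaced arrays, by 0.76 (0.02 to 1.51, two-sided exact permutation p = 0.0344, limma adjusted p = 0.883). The latter probe was highest on Roquin san/+ replicate C, at -3.62, and without the 5 arrays that stood apart it differed by 0.39 (-0.14 to 0.92).

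The cytoplasmic inhibitors differed by 0.17 to 0.45, and none passed the adjusted threshold. Nfkbia (chr12:56590945-56591440, - strand), which encodes IkB-alpha, read from 0.86 to 2.03 in Roquin san/+ (median 1.47) and from 0.47 to 1.78 in wild-type (median 1.33). The lowest array of each genotype was replicate C, and the highest of each was its displaced array. The difference was 0.22 (-0.24 to 0.69, limma adjusted p = 0.885).

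Nfkbib (chr7:29544167-29544848, - strand), which encodes IkB-beta, varied least of the 10 genes, from -2.0 to -1.57 in Roquin san/+ and from -2.23 to -1.78 in wild-type. Neither replicate F nor replicate G was the highest array, which was replicate E. The difference was 0.17 (-0.12 to 0.45, limma p = 0.228; two-sided exact permutation p = 0.0793), and the other Nfkbib probe differed by -0.11 (-0.70 to 0.49). Nfkbie (chr17:45700000-45700059, + strand), which encodes IkB-epsilon, had the largest SD of the 10 among the wild-type arrays (0.65) and read from -2.39 to -1.11 in Roquin san/+ and from -3.64 to -1.82 in wild-type, with a median of -2.07 in both. Its difference of 0.45 (-0.20 to 1.1, limma adjusted p = 0.883) lay in the extreme arrays and not in the medians.

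Bcl3 (chr7:20393826-20393885, - strand) was the gene with the largest difference of the 10. It read from -0.03 to 1.22 in Roquin san/+ (median 0.38) and from -1.29 to 0.61 in wild-type (median -0.20). Roquin san/+ replicates F and G were the highest arrays, wild-type replicates B, D and E lay among the Roquin san/+ arrays, and wild-type replicate C was by far the lowest. The means were 0.50 ± 0.44 and -0.17 ± 0.63 (SD, n = 7 each), a difference of 0.67 (0.06 to 1.28), or 1.59-fold, with an unadjusted limma p of 0.0327, a two-sided exact permutation p of 0.0344 and an adjusted p of 0.883. Within slide 1 the difference was 1.06 and within slide 2 it was 0.16. A further Bcl3 probe was not well above background on any of the 12 well-placed arrays and was not tested. The unadjusted p rose above 0.05 on leaving out any of Roquin san/+ replicates F (0.60) and G (0.55) or wild-type replicates C (0.49), F (0.65) and G (0.62), values in parentheses being the difference that remained.

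Tnfaip3 (chr10:18720776-18720835, - strand), the gene for A20, read from -2.27 to -0.88 in Roquin san/+ and from -2.79 to -1.18 in wild-type, with medians of -1.55 and -1.71. Roquin san/+ replicate G lay above all wild-type arrays and the others lay within their range. The difference was 0.19 (-0.36 to 0.74, limma adjusted p = 0.917).

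**Figure D2:**
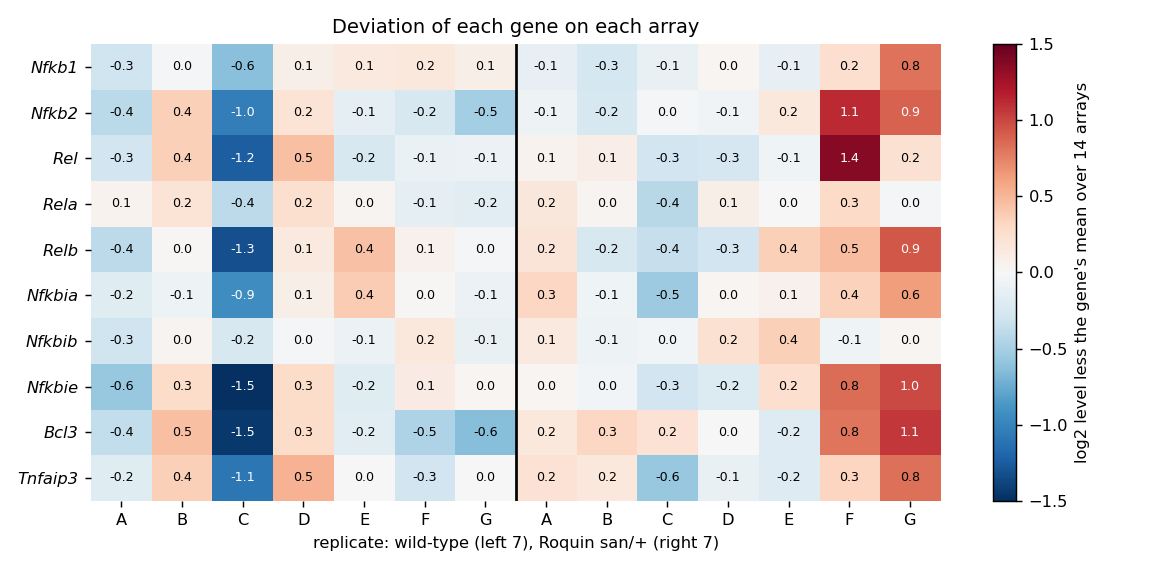
Deviation of each gene (rows) on each array (columns, wild-type left and Roquin san/+ right) from the gene's mean over the 14 arrays, in log2. The low column is wild-type replicate C, with a mean deviation of -0.99, and the high columns are Roquin san/+ replicates F (0.57) and G (0.64).

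The genes shared their extreme arrays. Wild-type replicate C was the lowest of the 14 arrays for 8 of the 10 genes, with a mean deviation of -0.99. Roquin san/+ replicate G was the highest for 6 and replicate F for 3, with mean deviations of 0.64 and 0.57. On the remaining 11 arrays the mean deviation lay between -0.29 and 0.23. Replicate G was 1 of the 2 displaced arrays, while replicate F and wild-type replicate C were well placed but low in T-cell markers.

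Of these arrays, Roquin san/+ replicate F was also the highest of all for markers of several other cell types, and replicate G was not. The 6 tested of 7 B-cell markers (the other was too dim to test) summed to 0.38 to 18.9 in Roquin san/+ and 0.21 to 4.8 in wild-type, with replicate F highest and the other Roquin san/+ arrays at up to 1.88. The 8 myeloid markers summed to 3.68 to 36.3 in Roquin san/+, with replicates F and C at 36.3 and 30.9, and to 1.41 to 9.87 in wild-type, with replicate C highest. The sum on Roquin san/+ replicate C came mostly from Itgam, at a log2 level of 4.78. There Lyz2, Csf1r, Tyrobp and Cybb lay at the median of the genotype, Adgre1 was its lowest, and Cd14 and Fcer1g were second to replicate F. All 6 B-cell and all 8 myeloid markers had a higher mean in Roquin san/+, with median differences of 0.85 and 1.03. On replicate F the level of Cd8b1, the only 1 of 2 CD8 T-cell markers tested, was 1.99, and the summed NK and erythroid markers were 1.24 and 4.90. On any other array these reached at most 0.22, 0.43 and 0.43. Replicate G had the lowest myeloid sum of its genotype, 3.68, and wild-type replicate C had a B-cell sum of 0.50, the median of its genotype. Roquin san/+ replicate C, with its high Itgam level, was the lowest array for 1 of the 10 genes and the highest for none. The part of these cells in the levels of the NF-kB genes was not tested.

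Roquin san/+ replicates C and F, wild-type replicate C and both displaced arrays were left out together, a choice made after seeing the data. The 9 arrays that remained were Roquin san/+ replicates A, B, D and E and wild-type replicates A, B, D, F and G. On these the difference of Nfkbib was larger than on all arrays, while that of each of the other 9 genes was closer to 0. The arrays left out included the extreme ones for most of the genes, so smaller differences were in part fixed in advance by this choice. Of the 10 genes, 6 were still higher in Roquin san/+, with a median difference of 0.04, and none had an unadjusted limma p below 0.05. Bcl3 differed by 0.22 (-0.34 to 0.77), Nfkb2 by 0.07 (-0.39 to 0.53) and Nfkbib by 0.22 (-0.11 to 0.54). Nfkb1, Rel, Nfkbie and Tnfaip3 leaned lower, by -0.12, -0.11, -0.02 and -0.07. Leaving out wild-type replicate C alone took the median over the 10 genes from 0.26 to 0.13.

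**Figure D3:**
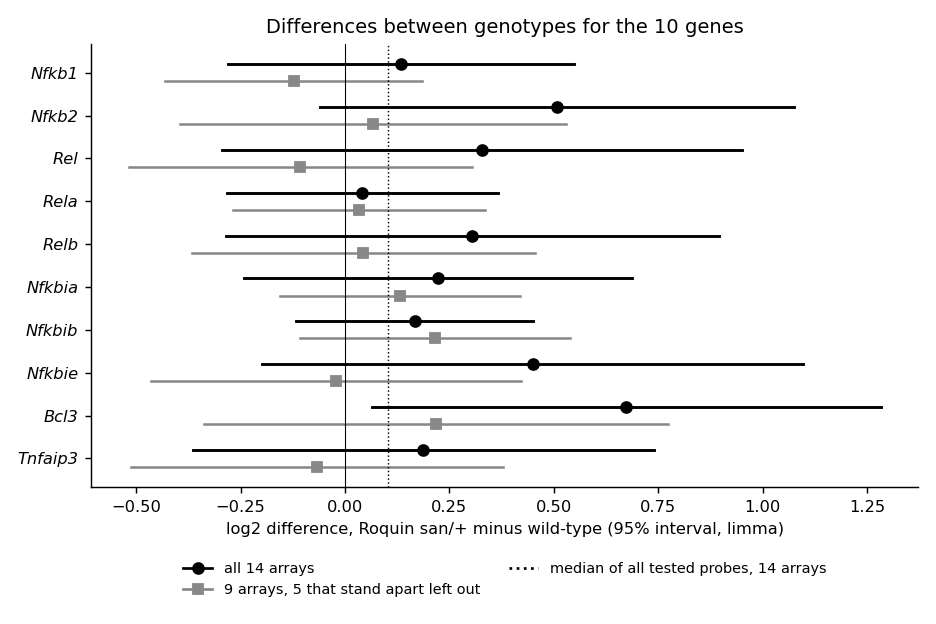
Difference between genotypes for each gene (horizontal axis, log2 Roquin san/+ minus wild-type with the 95% interval from limma), on all 14 arrays (black circles) and without the 5 arrays that stood apart (grey squares). The dotted line is the median of all tested probes on 14 arrays, 0.10. On all arrays the 10 points lie between 0.04 and 0.67 (7 of 10 above 0 when scaled over all probes), and with the 5 left out, 4 of the 10 squares lie below 0.

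The other genes of the pathway, 43 in 6 lists, were measured in the same fit. Of the 42 that could be tested (Il2 was too dim), 32 had a higher mean in Roquin san/+, with a median difference of 0.10, the same as over all probes, but 14 were higher when scaled over all probes. None passed the adjusted threshold. Without wild-type replicate C their median difference was 0.00.

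Upstream of the IkB proteins, no list stood far from the median of all probes. The 4 genes of the antigen receptor branch, which carry the signal to the kinases, had 2 higher means and a median of 0.05, with the smallest p for the protease Malt1 (0.34, -0.28 to 0.96, limma adjusted p = 0.883). Of 7 genes for the IkB kinases and their activator TAK1, 4 had a higher mean, with a median of 0.06, and Map3k7, which encodes TAK1, differed by 0.24 (-0.15 to 0.62). All 5 genes of the alternative branch, through which p52 is made, had a higher mean in the main scaling, with a median of 0.12. Map3k14, the gene for the kinase NIK, was level at 0.00 with scaling over all probes, against 0.17 (-0.31 to 0.66) in the main scaling. Scaling over all probes lowers every difference by the same amount. Genes of the list with a smaller difference than Map3k14, the median one among them, were therefore lower in Roquin san/+ with that scaling.

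The 10 genes for ubiquitin ligases and brakes that act beside A20 had 8 higher means and a median of 0.10. Tnip2, which encodes an A20-binding protein, had the smallest p of the list, with a difference of 0.33 (-0.11 to 0.78, limma adjusted p = 0.883). Nfkbid and Nfkbiz, nuclear IkB-like genes whose mRNAs are known targets of Roquin, differed by 0.00 (-0.75 to 0.76) and 0.05 (-0.80 to 0.91). The intervals reach far to both sides of 0, and the sign of both differences turned with quantile normalization, at -0.11 and -0.19.

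In the main fit the list with the largest differences was that of known NF-kB target genes. With quantile normalization its median was 0.20, against 0.23 for the 10 subunits and inhibitors. Of 14 tested, 11 had a higher mean in Roquin san/+ (8 with scaling over all probes), beside 63.4% of all tested probes. Their median difference was 0.32, against 0.10 over all probes. With no filter on dim probes the medians were level, at 0.39 for 15 target genes and 0.40 over all probes. At an unadjusted limma p below 0.05, 3 were higher and none was lower, beside 2.95% and 0.28% of all probes. The list was chosen with earlier results of these data known, so this count is no independent test of the list. Gadd45b, a stress-induced target that acts on p38 and JNK signalling, is named because it had the smallest p of the 14 tested. It read from -3.0 to -1.76 in Roquin san/+ (median -2.4) and from -3.93 to -2.79 in wild-type (median -3.14). The groups overlapped only at their edges. Its difference was 0.83 (0.32 to 1.34, unadjusted limma p = 0.00352, two-sided exact permutation p = 0.00466, adjusted p = 0.883), and without the 5 arrays that stood apart it was 0.57 with an unadjusted limma p of 0.0379. Within slide 1 Gadd45b differed by 1.38 and within slide 2 by 0.50, with an unadjusted limma p of 0.132 in slide 2.

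The other 2, Irf4 and Icam1, are likewise named because their unadjusted p was low, and were picked after their values were seen. Irf4, a transcription factor of activated T-cells and also of plasma cells, differed by 0.96 (0.31 to 1.6, limma adjusted p = 0.883), and without the 5 arrays by 0.49 with an unadjusted limma p of 0.179. Icam1, an adhesion molecule, differed by 0.57 (0.01 to 1.12, limma adjusted p = 0.883), and without the 5 arrays by 0.16. Markers of plasma cells summed to 3.18 to 14.9 in Roquin san/+ and 2.28 to 15.0 in wild-type, highest on replicate C of each genotype, and their part in the Irf4 difference was not tested.

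**Figure D4:**
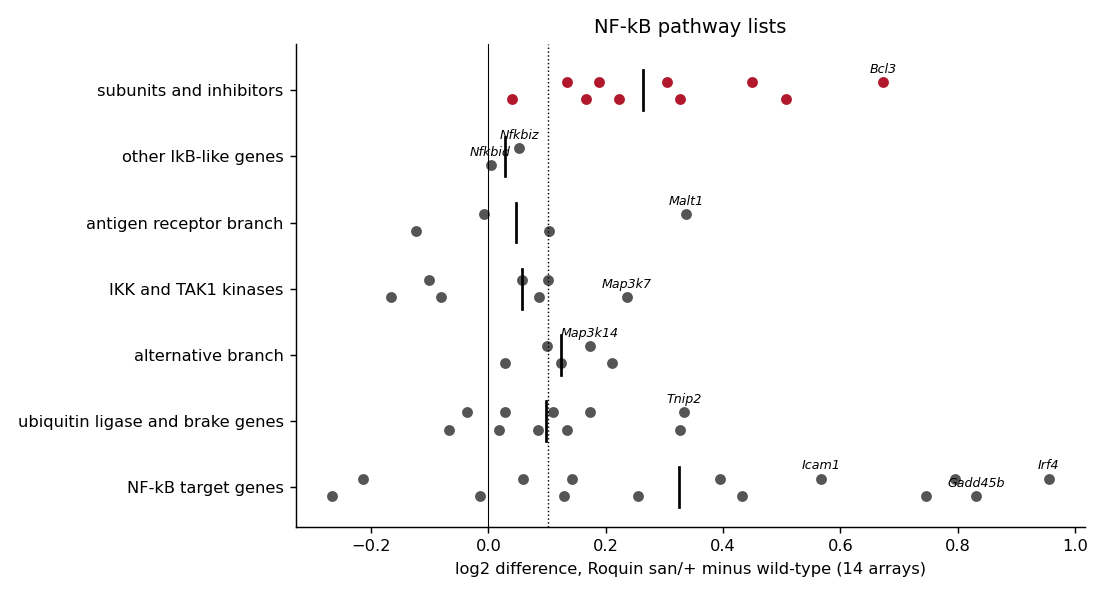
Differences between genotypes (horizontal axis, log2 Roquin san/+ minus wild-type, 14 arrays) for the 10 subunits and inhibitors (red) and the 42 tested genes of 6 other NF-kB lists (grey), with a vertical bar at each list's median and a dotted line at the median of all tested probes. The target genes reach 0.96 and have a median of 0.32 (0.15 with scaling over all probes, where 8 of 14 lie above 0). The subunits and inhibitors have a median of 0.26 (0.09 with scaling over all probes, where 7 of 10 lie above 0).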

How the data were processed

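The authors deposited, for each of the 14 arrays, the spot intensity table of Agilent Feature Extraction 10.5.1.1 (per the labels), in which the processed signal is already background-subtracted, and a table of log2 values whose method is not given in the sources used here. Python 3.11.15 with numpy 2.4.6 and pandas 2.3.3 read the arrays. Shifts of up to 6 rows or columns were compared by the correlation of an array with the median of all, and 2 arrays were moved by 2 rows. Control spots and outlier flags were left out, spots of a probe were averaged on the log2 scale, and the 75th percentile of each array was subtracted, taken over the 10345 probes that all 14 arrays measured well above background. Probes well above background on at least 6 of the 12 well-placed arrays were tested, regardless of genotype, because detection calls on the displaced arrays rest on misplaced control spots. The choice of the 10345 probes that set the percentile nevertheless used the calls of the displaced arrays as well. Of 56605 probes 32831 were tested, and 289 were left out for a missing value. limma 3.58.1 in R 4.3.3 (lmFit, eBayes, Benjamini-Hochberg, threshold 0.05) compared the genotypes, and the fit was checked on simulated data. The exact permutation test ran over all 3432 assignments of the arrays and can give no p below 0.000583. A gene was represented by its brightest tested probe. The 10 genes had 19 probes, of which 18 were tested. All 10 genes were named, with Nfkbid, Nfkbiz and the gene of smallest p in each other pathway list. The genes, lists and filter were chosen with earlier results of these data known. Probe coordinates are those of the array files (mm9), and exon or UTR positions on that build were not analysed here. Alternatives covered background correction (normexp, offset 50), normalization, scaling, filter, slide, replicate block, the authors' log2 values, deposited probe names, the mean of a gene's probes and leaving out arrays. Leaving out the 5 arrays that stood apart was chosen after seeing the data. The single values of some genes in the lists are not reported here.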

Additional observations from a re-analysis of the deposited data

Results flagged for a closer look

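Rel on Roquin san/+ replicate F stood apart from its group: its log2 level was 0.22, against -1.43 to -0.92 (median -1.15) on the other 6 Roquin san/+ arrays, and the gap was 0.689 of the group's range, above the critical value of 0.568 for 7 samples (Dixon). Chance alone flags about 1 group in 20, and 20 groups (10 genes in each genotype) were examined. On this array the B-cell markers summed to 18.9 and the T-cell markers to 7.60, and their part in the Rel level was not tested.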

How the results depend on the processing

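No probe passed the adjusted threshold in any of the 29 alternative fits across all probes, and none of the 10 genes was called in any (limma). The median difference of the 10 genes ran from 0.04 (without the 5 arrays that stood apart) to 0.36 and that of the other pathway genes from -0.07 (scaling over all probes) to 0.21. Arrays of the same letter showed no consistent correlation: that of their deviations ran from -0.278 to 0.410, and 3 of 14 arrays correlated best with their own letter. Whether the letters mark pairs by design cannot be told from these correlations. With the replicate block the number of probes past the adjusted threshold was 0 and 777 had an unadjusted p below 0.05, against 1062 without it. That count ran from 12 (deposited probe names) to 3153 (without wild-type replicate E).

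Several small differences changed sign, all with unadjusted p above 0.05, and the cause was not tested. With the 75th percentile over all probes they were Nfkb1 -0.039, Rela -0.13, Nfkbib -0.0064, Nfkbid -0.17, Nfkbiz -0.12 and Map3k14 -0.00020. Within slide 1 they were Nfkb1 -0.011, Nfkbib -0.019, Nfkbid -0.31, Nfkbiz -0.25 and Map3k14 -0.39, and within slide 2 Tnfaip3 -0.077 and Map3k7 -0.065. With slide as a block Nfkbid was -0.012 and Nfkbiz -0.028. Quantile normalization gave Nfkbid -0.11 and Nfkbiz -0.19, normexp gave Nfkbid -0.013, and the authors' log2 values gave Nfkbid -0.28 and Nfkbiz -0.27. The deposited probe names gave Rela -0.0085, Tnfaip3 -0.041, Nfkbid -0.090 and Nfkbiz -0.16. Without both displaced arrays Nfkbid was -0.036 and Nfkbiz -0.12, and without replicate F as well Nfkb1 was -0.016, Nfkbid -0.10 and Nfkbiz -0.24. Without the 5 arrays Nfkb1 was -0.12, Rel -0.11, Nfkbie -0.022, Tnfaip3 -0.067, Nfkbiz -0.064 and Malt1 -0.022. The mean of a gene's probes gave Rela -0.11. Leaving out single arrays, Nfkbid ran from -0.18 to 0.29, Nfkbiz from -0.15 to 0.39, Rela from -0.020 to 0.11 and Map3k14 from -0.0025 to 0.27, each lowest without wild-type replicate C. Bcl3 ran from 0.49 to 0.80 on leaving out single arrays, and its unadjusted limma p also rose above 0.05 with normexp (0.58), deposited probe names (0.44), both displaced arrays left out (0.58), scaling over all probes (0.50), slide as a block (0.61), the replicate block (0.67) and the authors' values (0.58).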
